A study of Homo sapiens with 6 samples.

Results

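The nuclear genome encodes most subunits of the respiratory chain, the enzyme series of the inner mitochondrial membrane that passes electrons from NADH and succinate to oxygen and uses the proton gradient this builds to make ATP. Complex I oxidises NADH, complex II oxidises succinate, complex III passes electrons from ubiquinol to cytochrome c, complex IV reduces oxygen, and complex V is the ATP synthase. Complexes I, III, IV and V also hold subunits made from mitochondrial DNA, whereas complex II is wholly nuclear-encoded. Genes were chosen by symbol alone, as those starting with NDUFA, NDUFB, NDUFC, NDUFS, NDUFV, UQCR, ATP5 or COX4 to COX8, together with SDHA, SDHB, SDHC, SDHD and CYC1. This gave 97 of the 17318 genes listed. Of the 97, 87 encode a subunit, a close isoform of one or the ATP synthase inhibitor, 8 encode assembly factors of complex I named NDUFAF, and 2 are read-through genes that join a subunit gene to its neighbour (ATP5MF-PTCD1 and NDUFC2-KCTD14). By textbook place, 37 of the 87 belonged to complex I, 4 to complex II, 10 to complex III, 17 to complex IV and 19 to complex V. Mitochondrially encoded subunits were not analysed here.

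RNA-seq was done on 6 libraries of the established gastric cancer line SNU216, each 48 h after transfection. In 3 libraries the cells had received a control siRNA (siControl) and in 3 an siRNA against OXTR, the oxytocin receptor gene (siOXTR), and no other treatment was labelled. The sources used here give no siRNA sequence. Nothing in the labels tells whether replicate libraries were separate cultures. The p-values therefore measure the spread among these 6 libraries alone, which may be technical. OXTR was at 39.37, 38.87 and 39.02 FPKM (a level that corrects the fragments counted for transcript length and library size) in siControl and at 4.76, 4.65 and 5.34 FPKM in siOXTR. In such bulk RNA, a change in how much RNA each cell held cannot be told apart from a change in the share of cells that made it.

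The 6 libraries had FPKM sums between 417829 and 459595, their depth in reads is unknown, and libraries of 1 group correlated more closely (Pearson r from 0.995 to 0.998 on log2(FPKM + 1) over genes) than libraries of different groups (0.974 to 0.976). Of 6 epithelial markers fixed for the check, all were above 1 FPKM on average, and their summed level was 6578 to 7630 FPKM in siControl and 7717 to 7874 FPKM in siOXTR. Of the 6, CDH1 and EPCAM fell by 1.88 and 1.00 on the log2 scale as deposited and were called lower after TMM scaling too. KRT19 rose by 0.27 as deposited without a call after TMM scaling, and KRT18, KRT8 and KRT7 had no call (0.15, 0.14 and 0.11 as deposited). Markers of fibroblasts (5 of 6 looked for were listed), blood cells (4 of 4) and endothelium (3 of 3) were all below 1 FPKM on average over the 6 libraries and none was at 0 in all of them, and their summed levels lay between 0.39 and 2.02 FPKM in every library. Those of fibroblasts summed to 1.62 to 2.02 FPKM in siControl and to 0.61 to 0.81 FPKM in siOXTR. Their part in the results was not tested.

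Most respiratory chain subunit genes were higher in siOXTR than in siControl in complexes I, III, IV and V, by small amounts, and complex II was mixed. Of the 87 subunit genes, 81 averaged at least 1 FPKM over the 6 libraries and were tested, and 74 of those rose and none fell (limma on log2(FPKM + 1), adjusted p under 0.05 over all 11550 tested genes). None of the 81 was lower at an unadjusted p under 0.05. As background, 42.2% of all tested genes were called higher in siOXTR and 17.6% lower. The median log2 fold change was 0.32 for the subunits and 0.13 for all tested genes. The groups did not overlap in 70 of the 81, with siOXTR above siControl, as in 45.2% of all tested genes.

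These counts depend on how the libraries are scaled. TMM scaling, which sets libraries to a common level by the trimmed mean of gene ratios, moved the median of the log2 fold changes over the 11550 genes by -0.11, to 0.02. Under it 43 of the 81 subunits were higher and 1, SDHD, was lower, with a background of 19.8% higher and 24.2% lower, and the subunit median was 0.20. Rescaling each library to a sum of 1000000 gave 64 higher and none lower, against a background of 25.5% higher. As deposited the subunit median lay above that of all tested genes by 0.19. After TMM scaling 79 of the 81 subunits had a positive log2 fold change, the exceptions being SDHA and SDHD, against 52.8% of all tested genes.

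**Figure D1:**
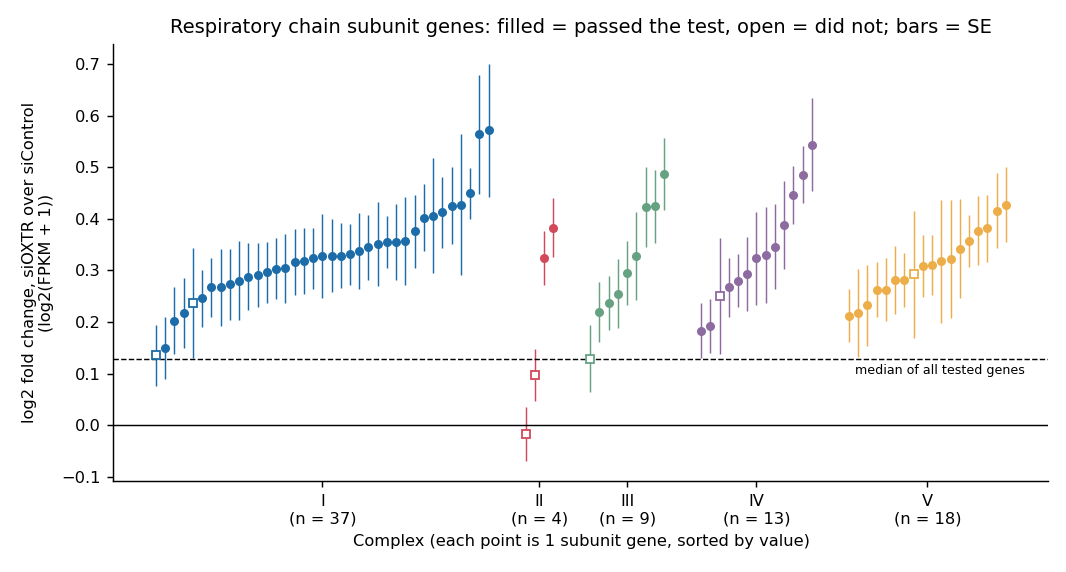
The log2 fold change of siOXTR over siControl on log2(FPKM + 1) is plotted for each of the 81 tested subunit genes, sorted within complexes I to V, with bars for the SE, filled points for genes that passed the test and open points for those that did not. All points of complexes I, III, IV and V lie above the dashed median of all tested genes (0.13), UQCRFS1 only just, while SDHA and SDHD of complex II lie below it.

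**Figure D2:**
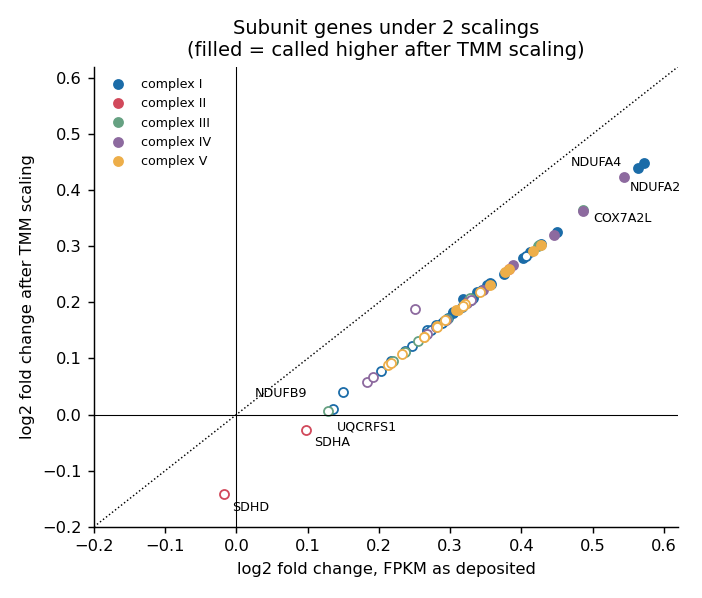
Each point is 1 tested subunit gene, with its log2 fold change as deposited on the horizontal axis and after TMM scaling on the vertical axis, filled where it was called higher after TMM scaling. Points run below the dotted line of equality because TMM scaling lowers all of them, and SDHA and SDHD end below 0.

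The summed FPKM of the subunit genes was higher in siOXTR in each complex. For all 87 genes the sum was 7128, 7553 and 7924 FPKM in the siControl libraries and 8823, 9618 and 9439 FPKM in the siOXTR libraries, so every siOXTR library lay above every siControl library. The FPKM sum of all listed genes did so too, at 417829 to 434167 in siControl and 446246 to 459595 in siOXTR. As a share of all FPKM in the library, which does not depend on scaling, the sums were 1.76% ± 0.06 in siControl and 2.05% ± 0.061 in siOXTR (SD, n = 3 each). Complex I held the largest summed level of the 5, at 2460 ± 138 FPKM in siControl and at 3088 ± 151 FPKM under siOXTR, a ratio of 1.26. The ratios were 1.24 for complex V, 1.23 for complex IV, 1.21 for complex III and 1.12 for complex II. These ratios are of FPKM as deposited and include the higher library sums of siOXTR. As mean shares of all FPKM, complex I was at 0.575% in siControl and 0.680% in siOXTR, and complex II at 0.0766% and 0.0807%. The shares were 0.171% and 0.194% for complex III, 0.418% and 0.483% for complex IV, and 0.5205% and 0.608% for complex V. No test of the sums is given, since the genes were chosen with results of these data known.

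**Figure D3:**
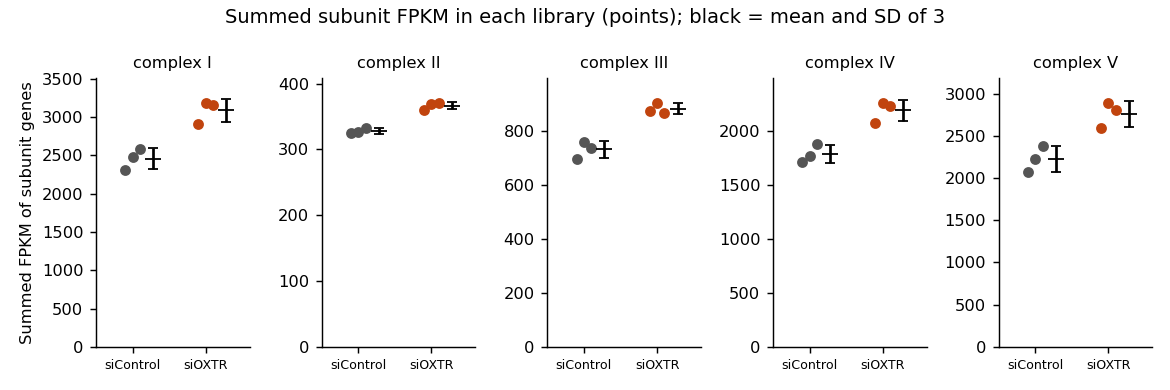
The summed FPKM of the subunit genes of each complex is plotted for every library (points) with the mean and SD of 3 libraries beside them, on axes that start at 0. In every complex the 3 siOXTR points lie above the 3 siControl points, and complex II shows the smallest ratio of means, 1.12. The FPKM sum of all genes was also higher in every siOXTR library.

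Libraries within a group also differed along these genes. In siControl, replicate 1 was the lowest of the 3 libraries in 55 of the 81 subunits and replicate 3 the highest in 55, and the median subunit deviated from the group mean by -0.07 and 0.08 on the log2 scale in those 2 libraries. In siOXTR, replicate 1 was the lowest in 60 of the 81 and replicate 2 the highest in 42, with median deviations of -0.06 and 0.04. Over all tested genes the median deviation was at most 0.01 in size in each of the 6 libraries. For 1472 other tested genes with a coding length under 600 bases the deviations in those libraries had the same signs and were smaller, at -0.03 and 0.04 in siControl and at -0.03 and 0.03 in siOXTR. Without siControl replicate 1, 66 of the 81 subunits were called higher, and without siOXTR replicate 2, 67 were.

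In complex II, succinate dehydrogenase, 2 of the 4 genes rose and 2 had no call. The share higher, 50%, is near the 42.2% of all tested genes. SDHB, the iron-sulphur subunit of the matrix head (chromosome 1, 17018722 to 17054170, GRCh38), was at 68.80, 72.42 and 77.32 FPKM in the siControl libraries and at 91.35, 98.13 and 96.27 FPKM in the siOXTR libraries. SDHC, a haem-binding membrane anchor (chromosome 1, 161314257 to 161375340), was at 42.17, 42.34 and 41.27 FPKM in the siControl libraries and at 50.43, 55.25 and 52.69 FPKM in the siOXTR libraries. Neither gene's groups overlapped, and both rose, SDHB by 0.38 (SE 0.057, adjusted p = 0.000147, limma) and SDHC by 0.32 (SE 0.053, adjusted p = 0.000272, limma), and both were higher after TMM scaling too. SDHA, the flavoprotein that oxidises succinate (chromosome 5, 218241 to 256700), was at 98.40, 102.05 and 97.19 FPKM in the siControl libraries and at 109.98, 103.97 and 104.73 FPKM in the siOXTR libraries. SDHD, the other membrane anchor (chromosome 11, 112086773 to 112120013), was at 114.93, 109.81 and 116.66 FPKM in the siControl libraries and at 108.61, 111.58 and 117.07 FPKM in the siOXTR libraries. The groups of SDHD overlapped, and those of SDHA did not, though the nearest libraries, at 102.05 and 103.97 FPKM, were close. Neither passed the test, with log2 fold changes of 0.10 for SDHA (SE 0.051, adjusted p = 0.114, limma) and -0.02 for SDHD (SE 0.052, adjusted p = 0.783, limma). After TMM scaling SDHA stood at -0.03 (adjusted p = 0.693, limma) and SDHD was lower, at -0.14 (adjusted p = 0.0476, limma).

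**Figure D4:**
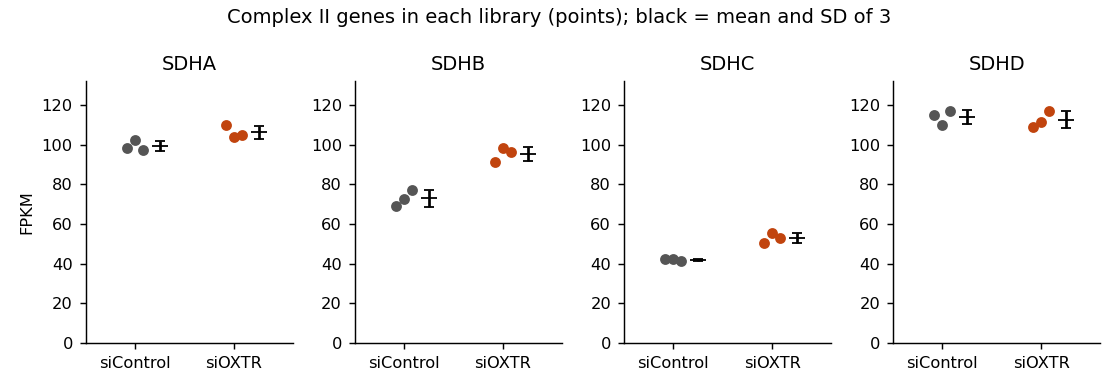
FPKM of the 4 complex II genes is plotted for each library (points), with the mean and SD of 3 libraries beside them, on a common axis from 0. SDHB and SDHC stand higher in all 3 siOXTR libraries, SDHA by a small margin, and the groups of SDHD overlap.

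The ratio of a pair of these genes within a library does not depend on how the library was scaled. SDHB stood at 0.599, 0.660 and 0.663 of SDHD in siControl and at 0.841, 0.879 and 0.822 of it in siOXTR, a log2 difference of 0.41. SDHC stood at 0.367, 0.386 and 0.354 of SDHD in siControl and at 0.464, 0.495 and 0.450 of it in siOXTR, a log2 difference of 0.35. The ratios SDHB to SDHA and SDHC to SDHA were higher by 0.29 and 0.23. All 4 ratios were higher in each siOXTR library than in each siControl library. These pairs were chosen after the values were seen, so the ratios are a description with no test.

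Promoter sequences are shown for 3 of the complex II genes, because these genes differed in their response, and for UQCRFS1 and UQCR11 of complex III, one without a call and one higher. Each is the 180 bases before the RefSeq start of the gene (GRCh38.p14), read 5′ to 3′ on the strand of the gene. Capitals mark 2 kinds of match on either strand, to GCGCA followed by any base and GCGC, the letters bound by nuclear respiratory factor 1 (NRF1), and to CCGGAAG, the core letters of ETS family factors such as GABP, both of them known regulators of respiratory genes.
SDHA, chr5:218140-218319, plus strand: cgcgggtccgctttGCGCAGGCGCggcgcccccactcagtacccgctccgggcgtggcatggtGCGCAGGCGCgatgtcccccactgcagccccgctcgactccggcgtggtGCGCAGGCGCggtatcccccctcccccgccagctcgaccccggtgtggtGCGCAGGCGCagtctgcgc
SDHB, chr1:17054033-17054212, minus strand: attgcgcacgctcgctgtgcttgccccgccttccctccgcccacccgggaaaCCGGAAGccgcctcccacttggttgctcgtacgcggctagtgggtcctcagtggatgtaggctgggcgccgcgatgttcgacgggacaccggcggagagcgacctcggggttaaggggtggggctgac
SDHD, chr11:112086693-112086872, plus strand: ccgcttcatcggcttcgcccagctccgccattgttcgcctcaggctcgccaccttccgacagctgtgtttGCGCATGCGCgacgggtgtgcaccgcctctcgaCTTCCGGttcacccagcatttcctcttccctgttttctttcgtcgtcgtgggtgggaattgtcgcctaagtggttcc
UQCRFS1, chr19:29213152-29213331, minus strand: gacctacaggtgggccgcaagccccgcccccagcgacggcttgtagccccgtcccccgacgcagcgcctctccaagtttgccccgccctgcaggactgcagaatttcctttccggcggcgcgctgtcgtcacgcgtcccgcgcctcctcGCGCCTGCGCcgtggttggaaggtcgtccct
UQCR11, chr19:1605463-1605642, minus strand: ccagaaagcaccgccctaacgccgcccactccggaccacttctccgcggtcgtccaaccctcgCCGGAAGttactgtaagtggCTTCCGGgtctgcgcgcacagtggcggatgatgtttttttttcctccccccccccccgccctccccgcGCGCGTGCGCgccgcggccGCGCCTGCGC
SDHA holds 4 matches to the NRF1 letters in this stretch, SDHD 1 NRF1 match and 1 ETS match, and SDHB 1 ETS match. UQCRFS1 holds 1 NRF1 match, and UQCR11 holds 2 NRF1 and 2 ETS matches.

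A RefSeq promoter window of 300 bases (250 before the start and 50 after) was on hand for 68 of the 81 tested subunits, and it was searched on both strands for those letters and for AAGATGGCG, letters bound by YY1. The ETS letters end in the AAG with which the YY1 letters begin, so these 2 can overlap, and the NRF1 letters can match 1 stretch on both strands. A match is a description and not a site or a cause. The NRF1 letters were in 23.5% of subunit windows, against 12.5% of the windows of all 9511 tested genes on hand and 6.28% of all 27305 windows. The ETS letters were in 29.4% of subunit windows, against 21.0% and 10.7%, and the YY1 letters in 11.8%, against 4.27% and 1.85%. As deposited, 13 of the 16 subunits with the NRF1 letters were called higher and 49 of the 52 without them, and after TMM scaling 6 of the 16 and 32 of the 52. For the ETS letters these were 18 of 20 with and 44 of 48 without as deposited, and 9 of 20 and 29 of 48 after TMM scaling. For the YY1 letters they were 7 of 8 and 55 of 60 as deposited, and 6 of 8 and 32 of 60 after TMM scaling. As deposited the share called higher was thus smaller with the NRF1 letters than without them, and nearly equal for the ETS and YY1 letters. After TMM scaling the share was smaller with the NRF1 and ETS letters and larger with the YY1 letters. Few subunits hold each motif, and these differences were not tested. The 3 with the NRF1 letters that were not called as deposited were SDHA, SDHD and UQCRFS1. Among all tested genes with a window, 49.0% with the NRF1 letters and 42.5% without were called higher as deposited. For the ETS letters these shares were 53.9% and 40.5%, and for the YY1 letters 54.4% and 42.8%.

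Complex I, the largest of the 5, had 35 of 37 genes higher and none lower, and 23 higher after TMM scaling. The log2 fold changes of its genes ran from 0.14 to 0.57, with a median of 0.33. By part of the enzyme, all 8 genes of the N module, which takes electrons from NADH, rose (median 0.31), as did all 8 of the Q module, which hands them to ubiquinone (median 0.34), and 19 of the 21 of the membrane arm, which pumps protons (median 0.33). After TMM scaling 6, 7 and 10 of these were higher.

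Among complex I genes NDUFA2 and NDUFA1 had the largest fold changes. NDUFA2, a small subunit of the N module (chromosome 5, 140638740 to 140647785), was at 40.96, 57.12 and 60.43 FPKM in the siControl libraries and at 74.75, 78.16 and 81.04 FPKM in the siOXTR libraries, so siControl replicate 1 lay well below the other two. Its log2 fold change was 0.57 (SE 0.13, adjusted p = 0.00537, limma). NDUFA1, a small membrane-arm subunit encoded on chromosome X (119871487 to 119876662), was at 47.21, 51.94 and 57.50 FPKM in the siControl libraries and at 64.46, 80 and 89.91 FPKM in the siOXTR libraries, with no overlap, and rose by 0.56 (SE 0.12, adjusted p = 0.00268, limma). NDUFB1, of the membrane arm, rose by 0.43, but the call was lost after TMM scaling and without any one of siControl replicates 1 and 2 and siOXTR replicates 2 and 3.

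At the low end of complex I, NDUFB9, an LYR-motif protein of the membrane arm and the most abundant complex I transcript here, had 207.9 ± 10.4 FPKM in siControl, and 228.5 ± 11.8 FPKM under siOXTR (3 libraries a group, ± SD) and did not pass the test (log2 fold change 0.14, SE 0.059, adjusted p = 0.0645, limma). NDUFA9, which helps to hold the Q module on the membrane arm and was the least abundant, went from 6.42, 6.57 and 6.77 FPKM to 7.23, 7.46 and 7.56 FPKM. It rose by 0.15 (adjusted p = 0.0466, limma), and the call did not hold after TMM scaling or without either of siControl replicates 1 and 2 or any of the 3 siOXTR libraries. NDUFC1, of the membrane arm, was the other gene without a call (adjusted p = 0.0801, limma). Without siControl replicate 3 both NDUFB9 and NDUFC1 were called higher (adjusted p = 0.0269 and 0.0168, limma), and so they were without siOXTR replicate 1 (adjusted p = 0.0338 and 0.0219, limma). Both were also called higher with same-numbered libraries taken as a block (adjusted p = 0.0235 and 0.00274, limma).

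The 8 NDUFAF assembly factor genes, whose products build complex I and are not part of it, had 7 higher and none lower, and 4 higher after TMM scaling, with a median log2 fold change of 0.27. The number was also 4 without siControl replicate 1 and without siOXTR replicate 2. NDUFAF4 went from 4.23, 3.99 and 4.96 FPKM to 6.19, 6.91 and 5.90 FPKM and rose by 0.45 (adjusted p = 0.000649, limma), and NDUFAF5 rose by 0.39. NDUFAF1 rose by 0.14 as deposited (adjusted p = 0.0423, limma) and lost the call after TMM scaling and when any 1 library was left out. NDUFAF2 averaged 37.4 ± 3.59 FPKM in siControl and 38.1 ± 2.15 FPKM under siOXTR, a log2 fold change of 0.03 that was -0.09 after TMM scaling, with no call in either. The read-through genes had no call. ATP5MF-PTCD1 was at 0.30, 1.33 and 1.62 FPKM in the siControl libraries and at 1.89, 2.30 and 1.86 FPKM in the siOXTR libraries, and NDUFC2-KCTD14 was between 6.33 and 8.08 FPKM in all libraries. Their values are uncertain, since they share exons with ATP5MF and NDUFC2.

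Complex III had 8 of 9 tested genes higher and none lower, and 4 higher after TMM scaling. The 5 tested small subunits all rose, with a median log2 fold change of 0.42. UQCR10 (chromosome 22, 29767369 to 29770413) was at 24.97, 29.44 and 30.39 FPKM in the siControl libraries and at 38.71, 39.77 and 41.18 FPKM in the siOXTR libraries, and rose by 0.49 (SE 0.07, adjusted p = 0.000115, limma). UQCRQ and UQCR11 both rose by 0.42 and UQCRB by 0.33, and UQCRB alone of these 3 lost its call after TMM scaling. UQCRH, the acidic hinge protein that helps cytochrome c to dock, rose by 0.22 and lost its call after TMM scaling. It has a near-identical copy, UQCRHL, which was at most 1.08 FPKM in any library and was not tested, and reads may be shared between them.

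Of the 2 redox subunits of complex III CYC1 rose and UQCRFS1 had no call. UQCRFS1, the Rieske iron-sulphur protein, was at 29.78, 35.65 and 33.44 FPKM in the siControl libraries and at 36.89, 35.33 and 35.91 FPKM in the siOXTR libraries, so the groups overlapped, and it did not pass the test (log2 fold change 0.13, SE 0.065, adjusted p = 0.105, limma), though it did without siControl replicate 2 (adjusted p = 0.0259, limma). CYC1, cytochrome c1, was at 167.47, 182.01 and 157.08 FPKM in the siControl libraries and at 212.28, 204.94 and 187.59 FPKM in the siOXTR libraries and rose by 0.26 (adjusted p = 0.00595, limma), without a call after TMM scaling. The core proteins UQCRC1 and UQCRC2 rose by 0.30 and 0.24, and UQCRC1 kept its call after TMM scaling. Within libraries, UQCR10 stood at 0.838, 0.826 and 0.909 of UQCRFS1 in siControl and at 1.05, 1.13 and 1.15 of it in siOXTR, a log2 difference of 0.37. The pair was chosen as the highest and lowest of the complex, so this is a description with no test.

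Complex IV, cytochrome c oxidase, had 12 of 13 tested genes higher and none lower, and 6 higher after TMM scaling, with a median log2 fold change of 0.32. The largest was in NDUFA4, first assigned to complex I and since placed in complex IV. NDUFA4 (chromosome 7, 10931951 to 10940256) was at 17.88, 22.06 and 24.23 FPKM in the siControl libraries and at 29.76, 32.53 and 32.02 FPKM in the siOXTR libraries, with no overlap, and rose by 0.54 (SE 0.09, adjusted p = 0.00032, limma). COX7A2L, which joins complex III to complex IV in supercomplexes (chromosome 2, 42333546 to 42425088), was at 48.42, 45.32 and 49.88 FPKM in the siControl libraries and at 66.08, 70.20 and 65.97 FPKM in the siOXTR libraries. It rose by 0.49 (SE 0.055, adjusted p = 1.55e-05, limma). Its paralogue COX7A2, a subunit of the enzyme, rose by 0.35, and the ratio of COX7A2L to COX7A2 overlapped between groups.

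COX6B1, which faces the intermembrane space, was at 153.56, 144.87 and 157.01 FPKM in the siControl libraries and at 200.11, 218.45 and 202.90 FPKM in the siOXTR libraries and rose by 0.45 (SE 0.056, adjusted p = 3.81e-05, limma). COX7B rose by 0.39, COX6A1 by 0.32, COX5A by 0.28 and COX5B by 0.27, and after TMM scaling COX7B and COX5A kept their calls and COX6A1 and COX5B did not. COX4I1 and COX8A, the most abundant transcripts of the complex at 270.4 ± 4.68 and 320.6 ± 10.8 FPKM in siControl, rose least, by 0.18 and 0.19, and had no call after TMM scaling. The COX4I1 call was also lost without siOXTR replicate 3. The tissue-restricted isoforms were near 0. COX6B2 was between 0.70 and 1.55 FPKM and had no call (adjusted p = 0.072, limma), though it was called higher without siOXTR replicate 2 (adjusted p = 0.0208, limma), and NDUFA4L2, COX7A1, COX7B2 and COX8C were at or below 0.21 FPKM in every library and were not tested.

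Complex V, the ATP synthase, had 17 of 18 tested genes higher and none lower, and 8 higher after TMM scaling, with log2 fold changes around a median of 0.31 and the narrowest range among complexes I, III, IV and V, 0.21 to 0.43. In the catalytic F1 head all 5 genes rose. ATP5F1B, the catalytic beta subunit (chromosome 12, 56638175 to 56646068), was at 275.75, 285.57 and 285.57 FPKM in the siControl libraries and at 354.88, 367.10 and 362.92 FPKM in the siOXTR libraries and rose by 0.36 (SE 0.0505, adjusted p = 9.88e-05, limma). ATP5F1A, the alpha subunit that alternates with beta in equal number, rose by 0.28. The ratio of ATP5F1B to ATP5F1A was between 2.02 and 2.07 in siControl and between 2.09 and 2.25 in siOXTR, a log2 difference of 0.07. Both genes were added after their values were seen, so this ratio is a description with no test. ATP5F1E, the epsilon subunit, rose by 0.38, and ATP5F1C, the gamma subunit that turns inside the head, by 0.21, and of these last 2 ATP5F1C lost its call after TMM scaling and ATP5F1E kept it.

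The c ring, which turns with the passing protons, is built from 3 genes that encode the same mature protein behind different targeting peptides. ATP5MC1 was at 87.19, 95.45 and 84.73 FPKM in the siControl libraries and at 106.54, 113.60 and 111.88 FPKM in the siOXTR libraries. ATP5MC2 was at 103.62, 90.50 and 105.14 FPKM in the siControl libraries and at 121.99, 140.49 and 141.00 FPKM in the siOXTR libraries. ATP5MC3 was at 42.37, 44.73 and 49.16 FPKM in the siControl libraries and at 57.22, 63.43 and 57.69 FPKM in the siOXTR libraries. All 3 genes were higher in every siOXTR library, rose by 0.31, 0.43 and 0.38 (adjusted p from 0.00038 to 0.000703, limma) and were higher after TMM scaling as well.

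Of the peripheral stalk 3 of 4 genes rose, and all 5 small membrane subunits did. ATP5PD, of the peripheral stalk, rose by 0.42 and held after TMM scaling. ATP5PF, of the same stalk, was at 103.38, 116.80 and 144.56 FPKM in the siControl libraries and at 132.47, 166.24 and 146.24 FPKM in the siOXTR libraries, so the groups overlapped, and it did not pass the test (log2 fold change 0.29, SE 0.12, adjusted p = 0.068, limma), though it did without siControl replicate 3 (adjusted p = 0.00223, limma) and without siOXTR replicate 1 (adjusted p = 0.0457, limma). The small membrane subunits had a median of 0.32, and none was called after TMM scaling. Near the share over all tested genes, 45.2%, the groups did not overlap in 2 of these 5 subunits, with siOXTR higher. ATP5MF, the lowest of them at 0.22, ATP5ME and ATP5MK lost their calls also without siControl replicate 1 or 2 and without siOXTR replicate 2 or 3, which leaves 2 of the 5 higher in each of these 4 cases. ATP5IF1, which encodes the inhibitor of the synthase, was at 254.95, 265.44 and 285.34 FPKM in the siControl libraries and at 300, 344.85 and 335.83 FPKM in the siOXTR libraries. It rose by 0.28 (adjusted p = 0.00316, limma) and had no call after TMM scaling. ATP5MGL, a copy of ATP5MG, was at most 0.42 FPKM and was not tested.

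Most subunit genes have short coding regions, and coding length moved with the fold change. Their median protein length was 136 residues, against 456 for all tested genes with a match, from the main coding transcript in GENCODE release 29. Across the 81 subunits, which share libraries, log2 fold change and coding length had a Spearman rho of -0.34, and across 11390 other tested genes -0.19. Among genes with a coding length under 600 bases, 56 of 61 tested subunits were called higher (median 0.32) and 815 of 1472 other genes, or 55.4% (median 0.21). From 600 to under 1200 bases, 11 of 12 subunits were called higher (median 0.30) against 45.3% of other genes (median 0.14), and at 1200 bases or more 7 of 8 subunits (median 0.27) against 37.1% (median 0.10). Subunits thus stood above other genes of their length range in all 3 ranges. The part of transcript length in the result was not tested.

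**Figure D5:**
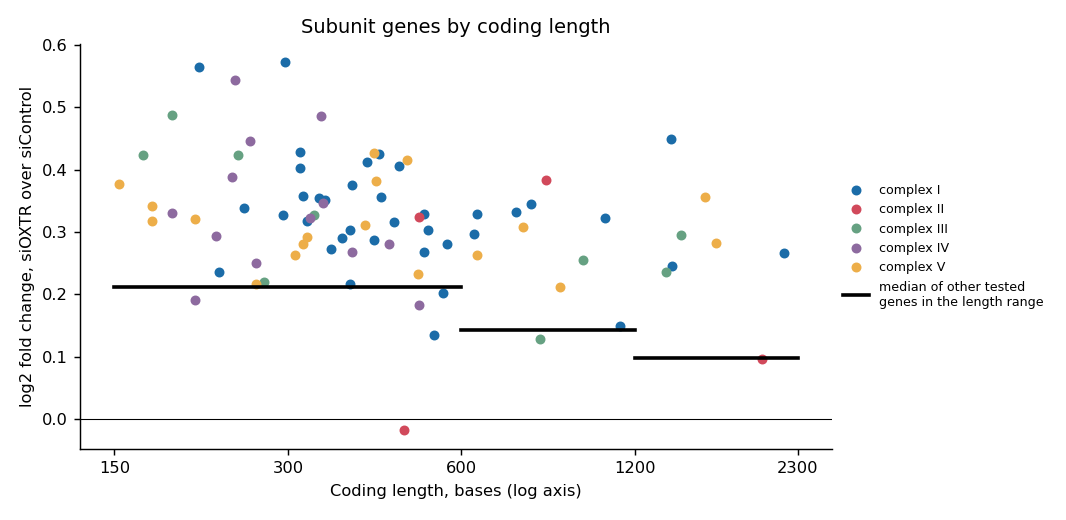
The log2 fold change of each tested subunit gene is plotted against its coding length in bases on a log axis, coloured by complex, with black lines at the median of the other tested genes in each of 3 length ranges. Most subunits lie above the line of their range (0.21, 0.14 and 0.10 from short to long), and SDHD is the one point below 0.

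Subunits with and without a long hydrophobic stretch had like values, and other genes did not. A window of 19 residues with a mean hydropathy (Kyte-Doolittle scale) of 1.7 or more was found in the proteins of 16 tested subunits, all of which rose (median 0.32), and 58 of the 65 without one rose (median 0.32). Among other tested genes, 3098 had such a window, with 625 higher and 1413 lower (median -0.12), and 8292 had none, with 4137 higher and 620 lower (median 0.17). After TMM scaling the medians were 0.20 for subunits with and without such a window, and -0.23 and 0.06 for other genes. The membrane anchor SDHD fell just short of the threshold, at 1.66, so the split does not separate membrane proteins from soluble ones. Proteins with a window had a median of 141.5 residues among the subunits and 466.5 among other genes.

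Most genes of the factors that assemble complexes I to IV were also called higher. Of all tested genes, 42.2% were higher as deposited and 19.8% after TMM scaling. Of 12 complex I factors not named NDUFAF 11 rose and 6 were higher after TMM scaling, led by DMAC2, which went from 11.5 ± 1.07 to 17.6 ± 0.604 FPKM. TMEM126B was the lowest, at 0.11 as deposited and -0.02 after TMM scaling, with no call in either. Of the 4 complex II factors 3 rose and held after TMM scaling, and SDHAF2, which helps to attach the flavin to SDHA, went from 33.01, 32.01 and 35.34 FPKM to 46.26, 47.96 and 46.20 FPKM. SDHAF3 was at 16.6 ± 0.999 and 16.1 ± 0.384 FPKM, with no call as deposited and a lower call after TMM scaling. Of 25 complex IV factors 20 rose and 10 were higher after TMM scaling, from COA6 at 0.46 to LRPPRC, a factor for mitochondrial mRNA, at 0.05 with no call (-0.07 after TMM scaling). Of 4 complex V factors FMC1 (0.22) and ATPAF1 rose, a share of 50% that is near the background. Neither held after TMM scaling, and TMEM242 was lowest at 0.14.

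Among the 9 listed complex III factors 6 were tested, of which 5 rose and 1 fell, and after TMM scaling 3 were higher and 1 lower, BCS1L and LYRM7 having lost their calls. The fall was in TTC19, an inner-membrane protein that clears fragments of UQCRFS1 from the finished complex. TTC19 was at 30.87, 33.54 and 35.73 FPKM in the siControl libraries and at 21.02, 22.17 and 20.56 FPKM in the siOXTR libraries. All siOXTR libraries were below all siControl libraries, and the log2 fold change was -0.63 (SE 0.063, adjusted p = 5.16e-06, limma) and -0.75 after TMM scaling. UQCC2, needed for the synthesis of cytochrome b, was the highest of the list at 0.42.

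Other genes of the pathway are read against the background of all tested genes, 42.2% higher as deposited and 19.8% after TMM scaling. Of 15 genes of cytochrome c and coenzyme Q synthesis 9 rose and none fell (median 0.18, 5 higher after TMM scaling), from COQ4 at 0.55 to COQ10A at 0.03 (-0.07 after TMM scaling, no call). Of 14 genes of the tricarboxylic acid cycle, which feeds complexes I and II, 9 rose and none fell (median 0.20, 3 higher after TMM scaling), from IDH3B at 0.43 to IDH3G at 0.03 (-0.10 after TMM scaling, no call). Of 13 genes for transcription and replication of mitochondrial DNA 6 rose and none fell (median 0.14, 2 higher after TMM scaling, both shares near the background), from MTERF2 at 0.36 to TWNK, the mitochondrial helicase, at -0.08, which was called lower after TMM scaling. Of 10 tested transcription factors and coactivators of respiratory genes 6 rose and none fell (median 0.24, 3 higher after TMM scaling). ESRRA, a nuclear receptor that drives respiratory genes, went from 28.75, 32.23 and 27.13 FPKM to 40.68, 40.41 and 37.46 FPKM and rose by 0.42 (adjusted p = 0.000245, limma), without overlap. PPARGC1B had a log2 fold change of 0.00 and PPARGC1A averaged below 1 FPKM and was not tested. Of the factors whose letters were searched in promoters, NRF1 (0.03) and YY1 (0.13) had no call under either scaling. The GABP genes GABPA and GABPB1 rose by 0.32 and 0.33, and after TMM scaling GABPB1 kept its call and GABPA did not.

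Other large complexes are given for comparison, with no test of a difference between the lists. Mitochondrial ribosomal protein genes had 66 of 78 higher and none lower (median 0.28, and 34 higher with 1 lower after TMM scaling). Cytoplasmic ribosomal protein genes had 78 of 82 higher and none lower (median 0.32, and 46 higher after TMM scaling), close to the values of the subunits. Genes of the vacuolar ATPase, a rotary pump of acidic organelles related to ATP synthase, had 8 of 18 higher and 5 lower (median 0.17, and 5 each after TMM scaling). Of all tested genes 42.2% were higher and 17.6% lower as deposited, and 19.8% and 24.2% after TMM scaling. The vacuolar ATPase share higher as deposited, 44.4%, was thus near the background.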

How the data were processed

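Levels of 17318 genes were taken from 6 RNA-seq libraries, 3 siControl and 3 siOXTR, grouped by their labels. The deposited values are FPKM, per the file headers, and the submitters' processing notes name the build GRCh38.p13. An aligner, quantifier or annotation is not given in the sources used here. Without counts the depth and the precision it gives are unknown. The test, on the 11550 genes that averaged 1 FPKM or more across libraries, was limma 3.58.1 (R 4.3.3) applied to log2(FPKM + 1) (group only, mean trend, robust prior, two-sided), with Benjamini-Hochberg adjustment over all of them and a threshold of 0.05. Fold changes are on that scale and understate those of low genes. The procedure was tested on simulated data. Unweighted TMM factors were computed on FPKM. Ratios of 2 genes within a library are descriptions, with no test. Coding lengths, hydropathy and gene coordinates came from GENCODE release 29 (GRCh38), promoters from RefSeq (GRCh38.p14).

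Alternatives were TMM and TPM scaling, pseudocounts of 0.1 and 5, no filter or a mean of at least 5 FPKM, no trend or robust prior, a replicate block, and leaving out each library. Members, lists and the rule for named genes were chosen with earlier results of these data known. The rule names OXTR, the SDH genes, CYC1, the 4 highest and 2 lowest tested members of each of complexes I, III, IV and V by log2 fold change, members called lower, paralogous isoforms, ATP5IF1, the 2 highest and 2 lowest NDUFAF genes, and the highest and lowest tested gene of each list. One gene that the rule names is not reported here. Other genes named (NDUFC1, ATP5PF, ATP5F1A, ATP5F1B, UQCRC1, UQCRC2, ATPAF1, the read-through genes, UQCRHL, ATP5MGL, COX7B2, ATP5ME, ATP5MK, BCS1L, LYRM7, PPARGC1A, NRF1, YY1, GABPA and GABPB1) were added after their values were seen.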

Additional observations from a re-analysis of the deposited data

How the results depend on the processing

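OXTR kept its call in every alternative (log2 fold change from -2.97 to -2.15, largest adjusted p = 5.91e-07, limma). Scaling changed the counts most. After TMM scaling 2282 of all tested genes were higher, with 43 subunits higher and 1 lower. By complex, 23 genes of complex I, 4 of complex III, 6 of complex IV, 8 of complex V and 4 NDUFAF genes were then higher, and 1 gene of complex II was lower. Rescaling to a sum of 1000000 left 2942 of all tested genes and 4 NDUFAF genes higher. Of the 74 subunits called higher as deposited, 43 kept the call in every setting run and 65 in every setting other than the 2 scalings. When each library was left out in turn, 66 to 77 subunits and 4 to 6 NDUFAF genes were higher. With the replicate block 76 subunits were higher, and the number over all tested genes rose above 4869 as well. Same-numbered libraries had correlations of 0.107, 0.0042 and 0.160 between their deviations from the group means. The highest correlation was 0.208, between siControl replicate 2 and siOXTR replicate 1. These values cannot decide whether same-numbered libraries belong together, which the labels do not say. Replicate 1 was most often the lowest library along the subunits in both groups. The cause of these differences was not tested. Without counts, no limit of detection can be given for the genes near 0.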
